A study of Homo sapiens with 72 samples.

Results

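This report describes the change in mRNA levels over 3 h of triptolide in CTU2-depleted A375 cells, an established human melanoma line. It rests on 6 of the 72 libraries of the series: 3 replicates harvested at 0 h and 3 replicates harvested at 3 h. Every library of the series was made from cytoplasmic RNA with QuantSeq, a method that reads the 3′ end of polyadenylated RNA. The knockdown cells (siCTU2) had been transfected for 42 h with a pool of 2 siRNAs against CTU2, and then received triptolide at 25 µM (T arm). Control cells (siGL2) carried a single siRNA against luciferase and were treated in the same way. A parallel TCHX arm combined triptolide with cycloheximide at 100 µg/ml, and the cells of all groups used here grew in medium with glutamine. No library here held either CTU2 siRNA alone, so loss of CTU2 and other effects of the pooled siRNAs cannot be told apart. In each replicate the times were split from identical batches of treated cells, and the labels do not state whether replicates were separate transfections, so p-values measure the spread between these samples, which may be technical.

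Triptolide stops initiation by RNA polymerase II, so an mRNA that decays quickly loses its share of the library within hours, while a long-lived mRNA keeps or gains share. Cells often use short-lived mRNAs for genes that must be switched off rapidly, such as immediate early transcription factors and feedback inhibitors of signalling. AU-rich elements in the 3′UTR, which recruit deadenylases through binding proteins, are a classical feature of such mRNAs. CTU2 and its partner CTU1 add sulphur to the wobble uridine of tRNAs that read lysine, glutamate and glutamine codons. A small interfering RNA acts through its guide strand, and a guide can also pair through its seed (positions 2 to 8) with mRNAs other than its target.

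The 6 libraries held 9490373 to 14009987 counts and detected 16351 to 17449 gene names. Correlations of log2 CPM between replicates of one time were 0.985 to 0.988, and between times 0.958 to 0.966. Levels are given as CPM (counts scaled to a common library total) after TMM scaling, which assumes that most genes keep their share of the library. A change is the log2 ratio of 3 h to 0 h with its standard error (SE) from edgeR, and a gene was called when its Benjamini-Hochberg adjusted p was under 0.05. Changes are therefore relative to the typical mRNA, not absolute decay rates. In these bulk samples fewer cells expressing a gene and less RNA per cell cannot be told apart. Of 12 melanocytic and neural crest markers, 9 exceeded 1 CPM in all 6 libraries, and their sum was 972 to 1188 CPM at 0 h and 881 to 1073 CPM at 3 h. TYR and MLANA, which serve pigment synthesis, were at or near 0. CDH1, KRT5, KRT19, TP63 and GRHL2 were at 0 in all 6 libraries, as were DCN, COL3A1 and CD3E. The 12 epithelial markers together gave 167 to 198 CPM at 0 h and 173 to 233 CPM at 3 h. Most came from KRT18, with 146 to 170 CPM at 0 h. EHF and FLG, which were raised by the knockdown (below), held 7.28 to 13.1 and 6.84 to 13.3 CPM at 0 h. The 6 fibroblast markers gave 6.36 to 11.4 CPM and 10.3 to 13 CPM, and the 4 leukocyte markers 0 to 0.223 CPM and 0.280 to 0.380 CPM, in that order of times.

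CTU2 itself (chr16:88706483-88715396, GRCh38) was low in the knockdown cells. It measured 2.82, 0.972 and 1.26 CPM at 0 h and 0.746, 0.570 and 0.652 CPM at 3 h. Control cells held 20.7, 21.6 and 23.7 CPM at 0 h and 31.1, 36.8 and 29.1 CPM at 3 h, so the 2 conditions did not overlap at either time. The change of CTU2 over 3 h in knockdown cells was -1.23 (SE 0.61, adjusted p = 0.12) on 6 to 28 counts per library and did not pass the test.

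The sequences of the siRNAs matter for the comparison with control cells below, so they are shown here as sense strands, 5′ to 3′ and without the dTdT overhang. Capitals mark positions 12 to 18, which are the letters an mRNA needs to pair with positions 2 to 8 of the guide.
siCTU2#1: cuaucaagcucAUGACCAa
siCTU2#2: gcgugaacaugAAGGACUu
siGL2: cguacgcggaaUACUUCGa
Both CTU2 siRNAs matched the coding sequence of CTU2 at 19 of 19 positions, at chr16:88713389-88713407 and chr16:88714907-88714925 (plus strand).

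After 3 h, 2251 of 12558 tested genes were lower (17.9%) and 1874 were higher (14.9%) in siCTU2 cells, and without replicate 1 the higher genes numbered 1024. The changes were lopsided in size: 948 genes were lower by at least 1 log2 unit and 177 were higher by as much. The quartiles of all genes were -0.34 and 0.22, with a median of 0.01. The number of calls depended on the scaling. With scaling on 198 stable genes chosen by the study's rule, which selects genes whose CPM rises in these same libraries, 8993 genes were lower (71.6%), 148 were higher (1.18%) and the median of all genes was -0.55. With scaling on ribosomal protein mRNAs the counts were 3310 (26.4%) and 319 (2.54%), with a median of -0.19.

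The 12 genes with the largest fall were MIR222HG, MIR17HG, JUN, TRIB1, DUSP1, KLF6, EBLN2, SNAI2, CSRNP1, NFKBIA, NUAK2 and DUSP6, and they changed by -4.79 to -3.84. JUN (chr1:58776845-58784048), a subunit of the AP-1 transcription factor, went from 78.6, 82.3 and 60.3 CPM at 0 h to 2.05, 3.90 and 3.48 CPM at 3 h. Its change was -4.52 (SE 0.16, edgeR adjusted p = 4.6e-21). KLF6 (chr10:3775996-3785281), a zinc finger transcription factor, went from 56.0, 63.1 and 58.6 CPM to 3.17, 3.80 and 2.83 CPM. The phosphatase DUSP6 (chr12:89347235-89352501), which dephosphorylates ERK, was the most abundant of the 12. It fell from 362, 300 and 310 CPM to 15.8, 27.8 and 23.8 CPM, a change of -3.84 (SE 0.12, adjusted p = 8.0e-23). NFKBIA, the inhibitor of NF-kB, went from 60.2, 62.3 and 59.6 CPM to 3.17, 5.99 and 3.12 CPM. MIR17HG (chr13:91347686-91397592), the host transcript of the miR-17-92 cluster, went from 15.8, 15.1 and 16.0 CPM to 0.839, 0.855 and 0.145 CPM. In each of these 5 genes the 0 h and 3 h libraries were far apart and did not overlap, as follows from choosing the largest falls. SNAI2, a factor of the neural crest lineage, changed by -4.0 and DUSP1 by -4.39, both on fewer counts.

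**Figure D1:**
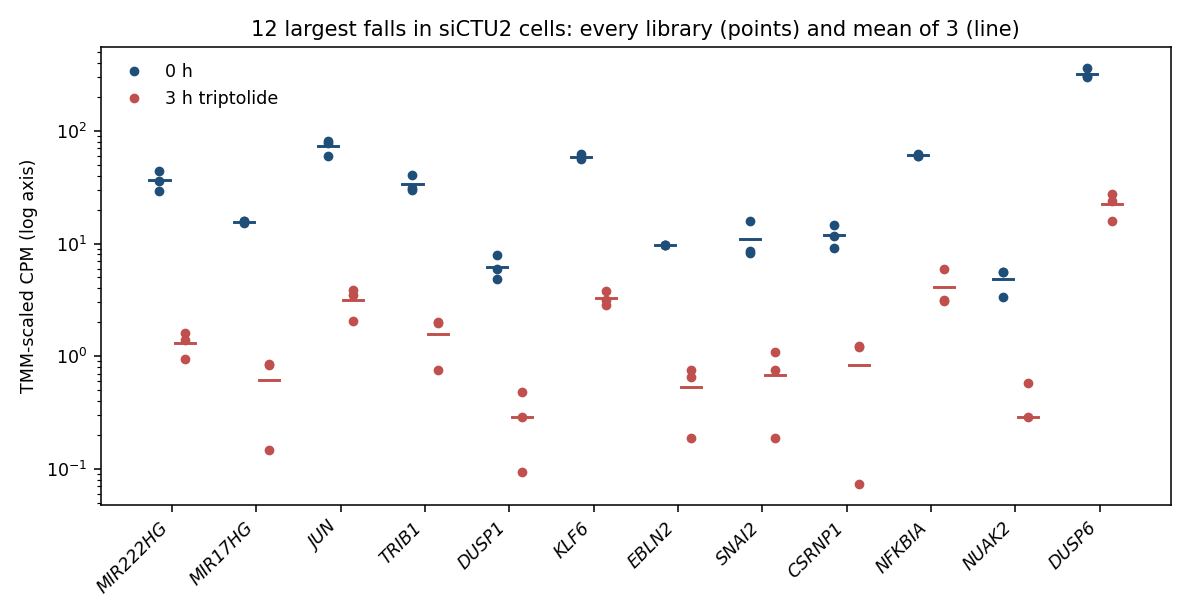
TMM-scaled CPM on a log axis for the 12 genes with the largest fall over 3 h in siCTU2 cells, with 0 h libraries in blue, 3 h libraries in red and lines at the mean of 3. The times do not overlap for any of the 12 genes, as follows from choosing the largest falls. For NUAK2, 1 library at 3 h had 0 counts and cannot be drawn on the log axis.

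Most members of several signalling lists were lower at 3 h. Of 25 immediate early transcription factors, 22 were lower and 0 were higher, with a median change of -1.59 against 0.01 for all genes and against 17.9% of all genes called lower. Their largest falls after JUN were CSRNP1 at -3.93, MYC at -3.72 and IER5 at -3.50. Of 23 tested genes on the ERK pathway feedback list, 15 were lower and 2 were higher (median -0.73). The list holds DUSP and SPRY genes, which dampen the pathway that BRAF drives in this line, and others such as CCND1 and LIF. DUSP10 changed by -3.51 and SPRY2, an inhibitor of receptor tyrosine kinase signalling, by -3.46. Of 17 ID and TGF-beta feedback genes, 11 were lower and 1 was higher (median -0.79), with CCN1 at -3.24, ID1 at -2.98, SMAD7 at -2.78 and ID4 at -2.71. Among 13 KLF transcription factors 7 were lower and 0 higher (median -1.02), including KLF10 at -2.18, KLF4 at -1.99 and KLF9 at -1.30. Of 19 NF-kB feedback genes 8 were lower and 1 was higher (median -0.37), led after NFKBIA by IRF1 at -3.55, NFKBIZ at -3.27 and REL at -1.40.

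Lists of regulators of mRNA stability and splicing included strong falls, beside 17.9% lower and 14.9% higher among all genes. Of 28 AU-rich element binders and deadenylation genes, 14 were lower and 3 were higher, with a median of -0.27. The members with the largest falls were BTG2 (-2.52) and TOB2 (-2.07), which link deadenylases to mRNAs, and the AU-rich element binders ZFP36L1 (-1.99) and ZFP36L2 (-1.94). Of 8 CLK kinases and cyclin L genes, which act on splicing factors, 5 were lower and 0 were higher (median -0.58), with CLK1 at -2.78, CLK4 at -2.48, CCNL1 at -2.29 and DYRK1A at -0.83. SR splicing factors were mixed: 4 of 13 were lower (30.8%) and 2 higher (15.4%), with a median of -0.14. TRA2B changed by -0.54, SRSF4 by -0.45 and SRSF10 by -0.43, while SRSF9 changed by 0.65. Of 21 snoRNA host genes 8 were lower and 1 was higher (median -0.23), including SNHG12 at -1.88, SNHG7 at -1.26, SNHG3 at -0.98 and SNHG1 at -0.89.

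Zinc finger genes formed the largest group. Of 366 tested genes with a ZNF name, 225 were lower (61.5%, against 17.9% of all genes) and 8 were higher (2.19%, against 14.9%). The list median was -0.91. ZNF304 changed by -3.04, ZNF549 by -3.0, ZNF574 by -2.97 and ZNF217 by -2.97. ZNF217 went from 20.7, 24.1 and 17.5 CPM at 0 h to 2.61, 2.47 and 2.68 CPM at 3 h. The list was drawn by name alone, and many but not all genes with such names encode DNA-binding repressors. Many are recently duplicated, and reads of near-identical members could have been divided among names.

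Lists of stress, death and cell cycle genes held members in both directions, beside 17.9% lower and 14.9% higher among all genes. Of 18 amino acid stress response genes 8 were lower and 2 were higher, with a median of -0.12. DDIT4, an inhibitor of mTORC1, changed by -3.07, DDIT3 by -1.96, CEBPB by -1.32 and PPP1R15A by -1.14. Of 20 p53 target genes 8 were lower and 2 were higher (median -0.11), and BBC3 changed by -2.10, PLK3 by -1.27 and AEN by -1.08. In the BCL2 family 3 of 16 were lower and 3 were higher, a share of 18.8% in each direction. MCL1, which protects from apoptosis, fell by 1.51 on the log2 scale and BBC3, which promotes it, by 2.10. BAK1 measured -0.65 (SE 0.27, adjusted p = 0.059) and HRK -0.59 (adjusted p = 0.18), which did not pass the test. Of 30 G2/M and mitosis genes 4 were lower and 4 were higher (median 0.03), a share of 13.3% each way, with CENPA at -0.83 and CCNF at -0.46. Of 40 DNA replication and repair genes 9 were lower (22.5%) and 8 were higher (20%) (median 0.02), and the largest falls were GINS1 at -1.42 and RPA2 at -1.10.

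Genes of protein synthesis and energy metabolism kept or gained share. Of 77 cytosolic ribosomal protein genes 50 were higher (64.9%, against 14.9% of all genes) and 1 was lower, with a median of 0.20 that became -0.36 on the stable gene scale, where 70 were lower. Of 65 nuclear-encoded respiratory chain subunits 37 were higher and 0 lower (median 0.20, and -0.36 on the stable gene scale). Of 15 glycolytic enzymes 11 were higher and 0 lower (median 0.25, and -0.32 on the stable gene scale). GAPDH rose by 0.42 (SE 0.06, adjusted p = 1.5e-06) and ENO2 by 0.38, changes that measured -0.15 and -0.18 on the stable gene scale. Of 20 lysosomal genes 12 were higher and 0 lower (median 0.23, and -0.34 on that scale), with CTSZ at 0.55 and GRN at 0.53.

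Other lists moved less. Of 34 proteasome subunits 13 were higher (38.2%) and 0 lower (median 0.16). Of 72 mitochondrial ribosomal protein genes 19 were higher (26.4%) and 2 lower (median 0.10). Of 18 extracellular matrix genes 4 were higher (22.2%) and 0 lower (median 0.16). Among all genes 14.9% were higher and 17.9% lower. On the stable gene scale the medians of these lists were -0.41, -0.46 and -0.41. There 34, 68 and 14 of their genes were lower, beside 71.6% of all genes. Of 33 translation initiation and elongation factors 12 were higher (36.4%) and 2 lower (6.06%), with a median of 0.08, and -0.49 on that scale. EIF4A2, an RNA helicase of initiation, stood out from its list with 86.4, 89.7 and 84.6 CPM at 0 h and 39.5, 35.2 and 47.6 CPM at 3 h, a change of -1.09 (SE 0.10, adjusted p = 1.4e-10). EIF3C measured 0.91 (adjusted p = 0.0041) but 0.34 (adjusted p = 0.22) on the stable gene scale, and its reads could be shared with the near-identical EIF3CL. Of 28 sterol and fatty acid synthesis genes 5 were higher (17.9%) and 2 lower (7.14%), with a median of 0.12, and -0.44 on that scale. The higher share was near that of all genes (14.9%). None of the 26 listed names of mitochondrially encoded mRNAs was among the genes analysed.

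**Figure D2:**
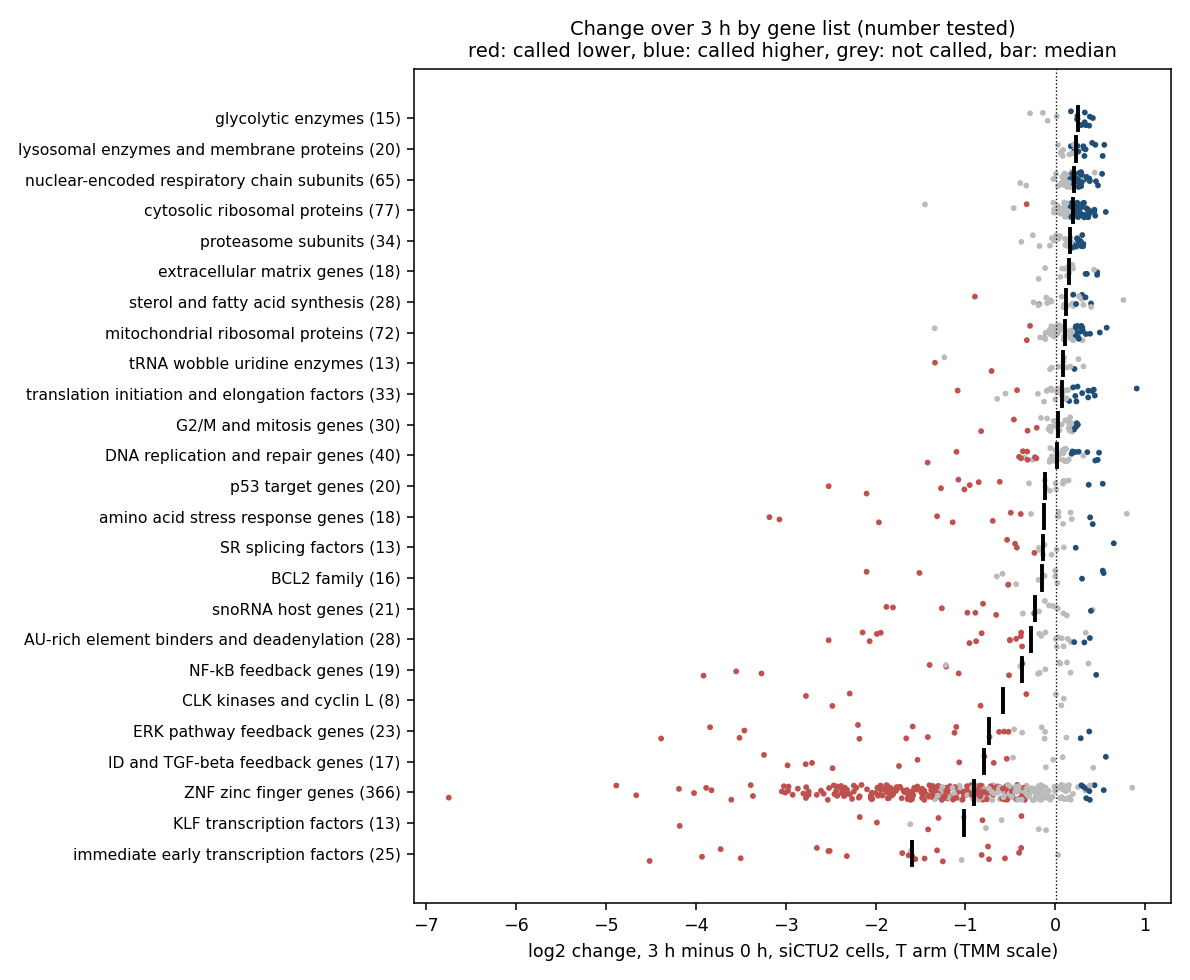
Log2 change over 3 h in siCTU2 cells on the TMM scale for each tested member (point) of the gene lists with at least 8 tested members, with the list median as a black bar and the median of all genes as a dotted line. Immediate early transcription factors had the lowest median (-1.59) and glycolytic enzymes the highest (0.25, which was -0.32 on the stable gene scale).

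Of 13 tested enzymes that make or modify the tRNA wobble uridine, 2 were lower (15.4%) and 1, TRMT112, was higher (7.69%). Among all genes 17.9% were lower and 14.9% higher, so the list did not exceed these shares. Its median was 0.09, and -0.48 on the stable gene scale. MOCS3 (chr20:50958818-50963929), which supplies the sulphur for the step that CTU1 and CTU2 carry out, went from 18.2, 14.5 and 17.2 CPM to 7.83, 6.18 and 5.73 CPM. Its change was -1.34 (SE 0.19, adjusted p = 1.0e-06). ALKBH8, which completes the modification, changed by -0.71. CTU1, the catalytic partner, measured 0.26 (SE 0.13, adjusted p = 0.14).

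The largest rises came from genes with almost no counts at 0 h. Genes named for the size of their rise were LEP, COL21A1, SLC2A2, PBOV1, ABCD2, LMOD3, DMRTA2, TMPRSS15, DCAF4L2, PUS10 and IL1R2. LEP (chr7:128241278-128257629), which encodes the adipocyte hormone leptin, had 0 counts in all 3 libraries at 0 h and 378, 312 and 429 counts at 3 h. COL21A1 (chr6:56056590-56394094), a collagen, had 0 counts and then 215, 158 and 342. Against a floor of 3 counts per library, LEP was at least 121-fold higher and COL21A1 at least 75.7-fold higher at 3 h. The glucose transporter gene SLC2A2 (at least 30.3-fold), PBOV1 (at least 29.6-fold) and the peroxisomal transporter gene ABCD2 (at least 17.9-fold) also had 0 counts in every 0 h library. PUS10, a pseudouridine synthase gene, was already detected at 0.403, 0.442 and 0.446 CPM and reached 11.7, 13.7 and 8.48 CPM. Its change was 4.65 (SE 0.36, adjusted p = 2.7e-12). The floors cover counting error only, while the SE from edgeR also includes spread between replicates.

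A rule set after these values were seen gave the extent of this pattern: 51 gene names had at most 1 count in each 0 h library and at least 10 counts in each 3 h library. Of these names 31 were LOC, LINC or antisense names. The reverse pattern held for 12 names. Summed over the 51 names, the 0 h libraries held 0.316, 0.461 and 0.156 CPM (of total counts) and the 3 h libraries 207, 182 and 231 CPM. At 5 h the sum was 77, 97.8 and 109 CPM, and 41 of the 51 names had a lower mean at 5 h than at 3 h. The names were chosen for their counts in these 3 h libraries, so some fall by 5 h follows from that choice. The sum was also higher at 3 h in other arms. Of the 51 names, 22 met the rule in the siGL2 T arm and 21 in the siCTU2 TCHX arm. The names were chosen by this rule in the siCTU2 T arm, which holds all of them by that choice. These counts and the 0 h sums therefore do not compare the strength of the pattern between arms. In the siGL2 T arm the sum went from 1.16, 2.03 and 1.61 CPM at 0 h to 162, 172 and 185 CPM at 3 h. At 5 h the sum in that arm, which did not choose the names, was 53.1, 65.3 and 93.6 CPM. In the siCTU2 TCHX arm it went from 2.14, 1.96 and 3.55 CPM to 146, 133 and 177 CPM. What these reads derive from was not tested.

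**Figure D3:**
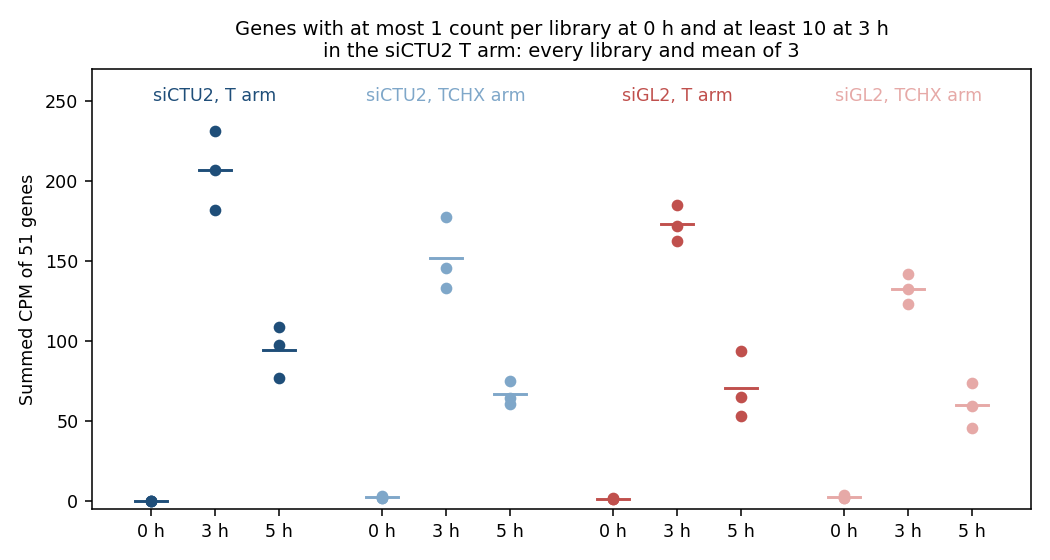
CPM (of total counts) summed over the 51 gene names that had at most 1 count per library at 0 h and at least 10 at 3 h in the siCTU2 T arm, for each library (points) and the mean of 3 (lines) at 0, 3 and 5 h. All 12 libraries at 3 h that are shown lay between 123 and 231 CPM, above every 0 h library (at most 3.96 CPM).

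Genes with more AU-rich letters had lower changes. Of the tested genes, 10886 (86.7%) had a coding transcript in GENCODE v44, of which 10881 had a 3′UTR. The 2648 genes with 0 ATTTA pentamers in the 3′UTR had a median change of 0.18, with 9.82% called lower and 29.4% called higher. The 3378 genes with 6 or more had a median of -0.08, with 24.6% lower and 8.26% higher. Longer 3′UTRs hold more pentamers, so the bins were repeated within terciles of length. In the longest tercile the median went from 0.16 over 61 genes with 0 pentamers to -0.08 over 2587 genes with 6 or more, and in the middle tercile from 0.14 over 558 genes to -0.09 over 766 genes. In the shortest tercile it was 0.19 over 2029 genes with 0 pentamers, -0.06 over 321 genes with 3 to 5 and -0.0015 over 25 genes with 6 or more, so the order did not hold in that last bin. The longer element TTATTTATT was present in 1107 genes, of which 25.7% were lower, against 17.6% of 9774 genes without it. The median 3′UTR was 3220 bases with it and 1286 without. Within terciles of length the shares called lower with and without it were 25.9% and 23.0% in the longest (734 and 2892 genes). They were 27.1% and 19.4% in the middle (277 and 3348 genes) and 20.8% and 11.5% in the shortest (96 and 3534 genes). These are descriptions across genes, which are not independent replicates.

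Among the 12 largest falls, the element TTATTTATT occurred in the 3′UTR of DUSP1, CSRNP1 and NUAK2, shown here on the transcript strand with the element in capitals.
DUSP1, chr5:172768645-172768669, minus strand: gctggtccTTATTTATTtaacttca
DUSP1, chr5:172768377-172768401, minus strand: aatataccTTATTTATTtttgtgta
CSRNP1, chr3:39142887-39142911, minus strand: ctctggatTTATTTATTtgttttaa
NUAK2, 1 of 3 overlapping copies, chr1:205302889-205302913, minus strand: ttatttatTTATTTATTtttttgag
JUN, KLF6 and NFKBIA held 3, 6 and 3 ATTTA pentamers but 0 copies of the longer element, and DUSP6 held 1 pentamer in a 3′UTR of 2019 bases.

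Codon content followed the change as well. Genes in the lowest quartile of GC at the last base of codons (22.3% to 43.1%) had a median of -0.09, with 25.0% lower and 6.90% higher. Genes in the highest quartile (72.1% to 100%) had a median of 0.15, with 13.4% lower and 25.9% higher. By the share of AAA and GAA codons, 2 of those that CTU2-dependent tRNAs read, the median went from 0.14 in the lowest quartile to -0.06 in the highest. The same order held in siGL2 cells, with 0.09 and -0.06. The difference between siCTU2 and siGL2 cells had a median of 0.06 in the lowest quartile and 0.01 in the highest. 3′UTR length differed between the codon quartiles. Its median was 1918 bases in the lowest GC quartile and 952 in the highest. By AAA and GAA share it was 919 bases in the lowest and 1744 in the highest. The median change also went from 0.12 in the shortest tercile of 3′UTR length to -0.05 in the longest. The codon bins were not repeated within these terciles, so codon content and length were not separated.

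Genes induced by the knockdown were then followed. They were taken from the 0 h libraries of the TCHX arm, which are not part of the decay contrast, although replicate numbers are shared between arms. There, 541 genes were raised (4.33% of 12507) and 661 were lowered (5.29%) by at least 1 log2 unit. Of 532 raised genes tested for decay, 95 were lower (17.9%) and 65 were higher (12.2%) at 3 h, with a median of 0.02. These shares were close to those of all genes (17.9% and 14.9%). With sets taken from the 0 h T arm libraries instead, the shares were 20.9% and 9.66%, and with no minimum fold (2281 genes tested) they were 17.5% and 24.6%. The higher share was therefore below or above that of all genes depending on how the set was cut.

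On the TMM scale the raised genes included mRNAs that lost share and mRNAs that kept or gained share. DKK1 (chr10:52314281-52318042), a secreted inhibitor of Wnt signalling, was raised by 5.17 on the log2 scale. It went from 59.8, 75.2 and 46.9 CPM at 0 h to 10.9, 16.6 and 9.86 CPM at 3 h, a fall of 2.28 (SE 0.13, adjusted p = 2.8e-16). It was the 1 gene lower among the 5 genes listed as raised by siCTU2 in earlier work on these data, a list that is not independent evidence. C9orf135 of that list measured -0.54 (adjusted p = 0.21) and MUC7 0.31 (adjusted p = 0.18). The heme oxygenase gene HMOX1, raised by 3.40, held 137, 202 and 148 CPM at 0 h and 171, 175 and 195 CPM at 3 h. Its change was 0.18 (SE 0.09, adjusted p = 0.12), and the libraries of the 2 times overlapped. On the stable gene scale HMOX1 measured -0.39 (edgeR adjusted p = 0.00013). SLITRK6 fell by 0.59 (adjusted p = 5.5e-05). LINGO2 rose by 0.99 (adjusted p = 2.3e-05), from 9.38, 10.8 and 9.81 CPM to 24.2, 18.4 and 17.3 CPM.

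The other genes named for their rise under knockdown did not pass the test over 3 h on the TMM scale. The growth factor gene NRG1 measured -0.21, the epithelial genes FLG and EHF -0.35 and -0.24, HRCT1 -0.23 and PGM5P2 -0.05. On the stable gene scale NRG1 (-0.77), FLG (-0.92), EHF (-0.80) and HRCT1 (-0.80) were called lower. PGM5P2 was not called there (-0.62, edgeR adjusted p = 0.11). EEF1D, the top gene by fold, rested on 1 library: it measured 1.80, 198 and 1.12 CPM in the siCTU2 TCHX libraries at 0 h. In the T arm it stayed at 0.839 to 2.60 CPM in all 6 libraries.

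Of 597 tested genes lowered by the knockdown, 168 were lower (28.1%) and 24 were higher (4.02%) at 3 h, with a median of -0.25. With sets from the 0 h T arm libraries the shares were 25.4% and 6.76% (median -0.15), and with no minimum fold 22.4% and 10.2% (median -0.05). Over the 595 of these genes tested in both conditions the median was -0.25 in siCTU2 cells and 0.05 in siGL2 cells. The difference between conditions passed its own test in the lower direction for 76 of the 595 genes and in the higher direction for 1, with a median of -0.28. In absolute terms, fewer copies made and faster loss cannot be told apart at 0 h.

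The difference itself was tested across 12 libraries. The change over 3 h was lower in siCTU2 than in siGL2 cells for 127 of 12975 genes (0.979%) and higher for 69 (0.532%), with the siCTU2 libraries shared with the decay contrast above. The 127 genes had a median change of -1.10 in siCTU2 cells and -0.05 in siGL2 cells. Without replicate 1 the counts were 72 and 41. Of the 127 genes, 122 were called lower over 3 h in siCTU2 cells and 42 in siGL2 cells. At 0 h of the TCHX arm, 112 of the 127 (88.2%) were lower in siCTU2 than in siGL2 cells, against 19% of all genes tested in both fits.

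The 5 genes with the smallest p were CCT3, TMEM158, C11orf24, ELK3 and DDI2. CCT3 (chr1:156308968-156367873), a subunit of the chaperonin that folds actin and tubulin, went from 43.2, 43.1 and 44.4 CPM to 12.1, 7.13 and 13.2 CPM in siCTU2 cells. In the siGL2 control it held 552, 539 and 531 CPM at 0 h and 593, 612 and 594 CPM at 3 h. The difference in change was -2.16 (SE 0.13, adjusted p = 2.9e-11). ELK3 (chr12:96194375-96269824), an ETS transcription factor, went from 21.1, 18.6 and 17.7 CPM to 3.82, 4.94 and 6.23 CPM, while siGL2 cells held 97.9 to 113 CPM at 0 h and 107 to 121 CPM at 3 h. Its difference was -1.98 (SE 0.18). DDI2, a protease that activates NRF1, differed by -1.61 (SE 0.15), TMEM158 by -1.42 (SE 0.12) and C11orf24 by -1.91 (SE 0.17).

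The 5 genes named for the largest loss at 0 h included CTU2 and CCT3 and showed the same direction. IDH1, cytosolic isocitrate dehydrogenase, went from 5.75, 2.83 and 6.02 CPM to 1.30, 1.62 and 0.435 CPM, and its difference from siGL2 cells was -2.36 (SE 0.33, adjusted p = 5.1e-05). G3BP2, a stress granule protein, differed by -1.96 (SE 0.22). HMGA2, a chromatin protein, had a knockdown change of -3.58 at 0 h and differed by -0.51 (SE 0.09). CTU2 differed by -1.84 (SE 0.40, adjusted p = 0.0084), a call that was lost without replicate 1 (-1.42, adjusted p = 0.36). IDH1, G3BP2 and CCT3 form the list of genes named as lowered by siCTU2 in earlier work on these data, and all 3 were lower over 3 h, so this is not independent evidence of direction.

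The 69 genes of the other direction had median changes of -0.66 in siCTU2 and -1.66 in siGL2 cells. Of them 46 were called lower over 3 h in siCTU2 cells and 65 in siGL2 cells. At 0 h of the TCHX arm 48 of the 69 (69.6%) were higher in siCTU2 cells, against 18.4% of all genes. MCL1 (chr1:150560895-150579738) held 325, 362 and 322 CPM at 0 h and 103, 139 and 112 CPM at 3 h in siCTU2 cells. In the siGL2 control it went from 183, 196 and 172 CPM to 19.7, 36.1 and 17.5 CPM. The difference in change was 1.42 (SE 0.15, adjusted p = 6.0e-07). BAMBI, a decoy receptor of TGF-beta signalling, differed by 1.57 (SE 0.17), the repressor ZBTB7A by 1.01 (SE 0.11), IMP3, a ribosome biogenesis factor, by 1.18 (SE 0.14) and DUSP6 by 1.86 (SE 0.22). MOCS3 fell by 3.60 in siGL2 cells and by 1.34 in siCTU2 cells, a difference of 2.25 (SE 0.38, adjusted p = 0.00056). Among genes raised by the knockdown 16 were in this direction and 0 in the other, while of those lowered 76 fell more and 1 fell less.

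**Figure D4:**
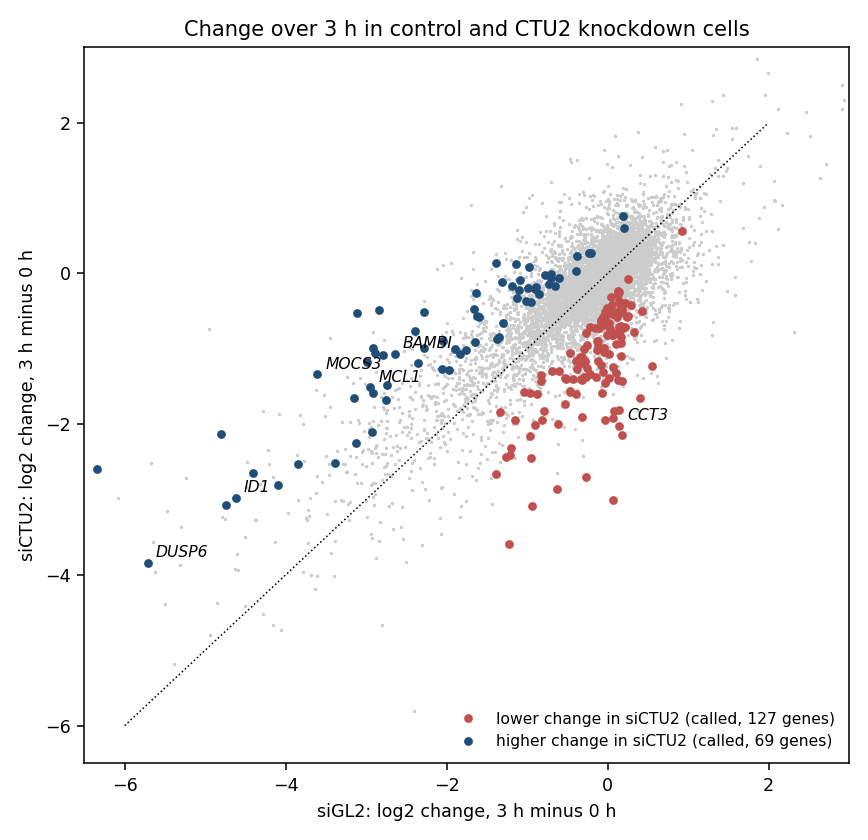
Log2 change over 3 h in siGL2 cells (x axis) and siCTU2 cells (y axis), T arm, for 11856 genes tested in both, of which 76 lie outside the axes. The dotted line marks equal change. Called genes were coloured by the sign of their difference, so their side of the line follows from the call (127 lower in red, 69 higher in blue).

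The difference was also measured in the TCHX arm, a fit added after the T arm result was seen and made on 12 other libraries. Replicate numbers are shared between arms, and the labels do not say whether arms of one number shared a transfection. The libraries may therefore not be independent of those of the T arm. Of the 127 genes lower in siCTU2 cells in the T arm, 114 (89.8%) had the same sign there, against 50.9% of all genes, and 47 were called in the same direction (1.5% of all genes were called lower). The median difference was -0.88 in the T arm and -0.37 in the TCHX arm. Of the 69 genes of the other direction, 53 (76.8%) had the same sign and 20 were called (1.95% of all genes were called higher). Among the 10 genes named by the difference, CCT3 (-3.17), DDI2 (-2.02), ZBTB7A (1.18) and IMP3 (1.39) had a larger difference there than in the T arm, and MCL1 (1.25) and ELK3 (-1.16) a smaller one. The values of BAMBI (0.67), DUSP6 (0.57) and TMEM158 (-0.67) were also smaller, and C11orf24 was not called (-0.44, edgeR adjusted p = 0.12).

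With cycloheximide, fewer genes changed over 3 h in siCTU2 cells: 926 were lower (7.38% of 12548) and 611 were higher (4.87%). Of the genes tested in both arms, 698 were lower in both, which is 31.3% of those lower in the T arm and 77.2% of those lower in the TCHX arm. JUN changed by -2.03, DUSP6 by -0.48, CSRNP1 by -0.31 (adjusted p = 0.314) and MIR17HG by -4.93 in the TCHX arm. The difference between arms was not tested here.

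The letters that pair with the siRNA guides were frequent in the 3′UTRs of genes that lost more share in siCTU2 cells. This search was chosen after the result was seen, ran over 10850 genes with a 3′UTR and a tested difference, and looked on the transcript strand only. The letters of siCTU2#1 (ATGACCA) were in the 3′UTR of 10.7% of all these genes, in 32.8% of 125 genes with a lower change in siCTU2 cells and in 3.13% of 64 genes with a higher change. The letters of siCTU2#2 (AAGGACT) were in 13.7%, 43.2% and 3.13%. Either was present in 60% of the 125 genes and both in 16.0%, against 21.7% and 2.80% of all. Both motifs contain the letters GAC, but 2 different copies can overlap by at most 1 letter.

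Other letters were counted in the same way. The same letters in reversed order (ACCAGTA and TCAGGAA) were in 8.61% and 20.1% of all genes and in 14.4% and 24.8% of the 125. The letters for the siGL2 guide (TACTTCG) were in 1.5% of all, in 0 of the 125 and in 6.25% (4) of the 64 genes with a higher change, and those for the siCTU2#2 passenger strand in 3.83% and 4%. The letters for the siCTU2#1 passenger strand (CTTGATA) were in 11.3% of all and in 21.6% of the 125. In coding sequences, the guide letters of siCTU2#1 were in 15.9% of all and 18.4% of the 125, and those of siCTU2#2 in 17.4% and 29.6%.

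In each tercile of 3′UTR length, the share of genes with a lower change was higher with the letters of either siRNA alone than with neither. In the longest tercile it was 0.996% of 2108 genes with neither motif, 2.21% of 544 with the siCTU2#1 letters, 3.13% of 702 with the siCTU2#2 letters and 6.77% of 266 with both. In the middle tercile it was 0.505% of 2971 genes, 2.83% of 247, 2.51% of 359 and 6.25% (2 genes) of 32. In the shortest it was 0.409% of 3421 genes with neither and 0 of 6 with both. It was 2.82% (2 of 71) with siCTU2#1 letters and 2.44% (3 of 123) with siCTU2#2 letters. Several of these shares rest on a few genes. Terciles hold length only in part: in the longest, the median 3′UTR was 3414.5 bases with neither motif and 5679.5 with both. Over all lengths the median difference in change was 0.03 for neither, -0.01 for siCTU2#1 letters, -0.03 for siCTU2#2 letters and -0.07 for both, so most genes with a match moved little.

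**Figure D5:**
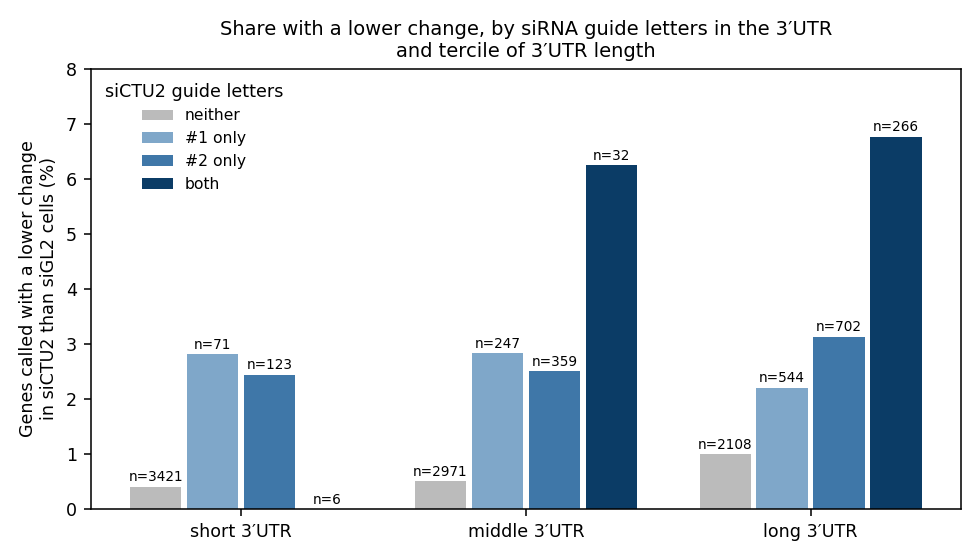
Percent of genes called with a lower change over 3 h in siCTU2 than in siGL2 cells, by tercile of 3′UTR length and by presence of the letters that pair with the siCTU2#1 or siCTU2#2 guide, with the number of genes above each bar. In the long and middle terciles the share was 6.77% and 6.25% with both motifs and 0.996% and 0.505% with neither. The 6.25% is 2 of 32 genes.

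The 3′UTR matches in the genes named for a lower change or for loss at 0 h, and the sites in CTU2, are shown on the transcript strand (GRCh38, GENCODE v44 transcripts), aligned to the 19 letters of the sense strand, with the letters that pair with guide positions 2 to 8 in capitals.
CTU2, siCTU2#1, coding, chr16:88713389-88713407: ctatcaagctcATGACCAa
G3BP2, siCTU2#1, 3′UTR, chr4:75645191-75645209: aggactgagaaATGACCAt
TMEM158, siCTU2#1, 3′UTR, chr3:45224794-45224812: catggcagaaaATGACCAa
DDI2, siCTU2#1, 3′UTR, chr1:15660411-15660429: aaaagcttcacATGACCAa
IDH1, siCTU2#1, 3′UTR, chr2:208236774-208236792: tctaattataaATGACCAa
CTU2, siCTU2#2, coding, chr16:88714907-88714925: gcgtgaacatgAAGGACTt
ELK3, siCTU2#2, 3′UTR, chr12:96267188-96267206: tggccacaattAAGGACTc
G3BP2, siCTU2#2, 3′UTR, chr4:75645203-75645221: cttggagaattAAGGACTg
DDI2, siCTU2#2, 3′UTR, chr1:15662970-15662988: tttttttatatAAGGACTa
HMGA2, siCTU2#2, 3′UTR, chr12:65963455-65963473: ataaccttaaaAAGGACTa
HMGA2, siCTU2#2, 3′UTR, chr12:65963799-65963817: acaccaaagatAAGGACTa
Outside CTU2, these sites matched the sense strand at 8 to 11 of 19 positions. CCT3 and C11orf24 held neither motif in the 3′UTR, and CCT3 held the siCTU2#1 letters at 2 places and C11orf24 the siCTU2#2 letters at 1 place in the coding sequence. MCL1, BAMBI, ZBTB7A, IMP3 and DUSP6, the 5 genes named for a higher change, held neither motif in the 3′UTR or the coding sequence. Among tested genes, 2 others matched a CTU2 siRNA with at most 2 mismatches. SEPTIN11, with 1 mismatch to siCTU2#2, had a knockdown change of -2.97 at 0 h and differed by -0.91 (SE 0.14, adjusted p = 0.00013) over 3 h. ANXA5, with 2 mismatches to siCTU2#1, had one of -2.02 and differed by -0.44 (SE 0.13, adjusted p = 0.089). A match of letters is a description, and whether the siRNAs act on these mRNAs was not tested.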

How the data were processed

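The values used were whole-number read counts per gene name in 1 table for the whole series, deposited by the authors, with 44659 names and 0 columns without a sample. Per the labels and the study's methods, the authors trimmed reads with fastp 0.20.1, aligned them to GRCh38 with HISAT2 2.2.1 and counted them on exons with HTSeq 0.13.5 (htseq-count). The sources used here name no handling of molecular identifiers, and PCR duplicates may therefore be counted. Spike-in names were not used here.

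Counts were analysed with edgeR 4.0.16 in R 4.3.3 (filterByExpr, TMM, quasi-likelihood F-test, replicate number as a block, Benjamini-Hochberg adjustment over all genes tested). The block follows the replicate term of the study's model. TMM was used because the study's stable genes are chosen for rising in this same contrast, and their scale was an alternative. The siGL2 T arm and the siCTU2 TCHX arm were fitted in the same way. The difference used an interaction of condition and time over 12 libraries. Genes changed by the knockdown were taken from the TCHX arm at 0 h, with no block, at an absolute log2 change of at least 1. Fits were tested on simulated counts.

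Named genes were the 12 largest falls and rises with an adjusted p under 0.05, the same direction in all 3 same-numbered pairs and a mean of at least 50 counts at the higher time, the 10 genes raised and 5 lowered most by the knockdown, the 5 smallest p in each direction of the difference, up to 4 members of each list and CTU2. LOC, LINC, antisense and numbered copy names were not named. The gene lists and members were chosen with earlier results of these data known, and the 2 lists named from earlier work were taken from those results. Genes named outside the rule (SEPTIN11, ANXA5, TRMT112, CTU1 and the marker genes) were chosen after their values were seen. Transcripts were MANE Select or canonical ones of GENCODE v44 (GRCh38), and the siRNA sequences came from the study's supplementary table. Alternatives covered scaling, DESeq2 1.42.0, filters, the block, leaving out each replicate and a test against 1.5-fold. A few genes that the naming rule or the lists select are not reported here.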

Additional observations from a re-analysis of the deposited data

Results flagged for a closer look

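Some named genes had a change over 3 h that differed between siCTU2 and siGL2 cells by the interaction test in edgeR, which flags a difference between groups. The difference in log2 change, siCTU2 minus siGL2, was negative for IDH1 (-2.36), CCT3 (-2.16), ELK3 (-1.98), G3BP2 (-1.96), C11orf24 (-1.91), CTU2 (-1.84), DDI2 (-1.61), GINS1 (-1.61), TMEM158 (-1.42), RPA2 (-1.27), ZFP36L2 (-0.81) and HMGA2 (-0.51). It was positive for MOCS3 (2.25), DUSP6 (1.86), DDIT4 (1.66), ID1 (1.63), BAMBI (1.57), MCL1 (1.42), IMP3 (1.18), ZBTB7A (1.01) and SNHG7 (0.78). GINS1 and RPA2, which serve DNA replication, did not pass the test over 3 h in siGL2 cells and had knockdown changes of -2.70 and -2.28 at 0 h of the TCHX arm.

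A library outside the comparisons carried a signal above its group. In the TCHX arm of cells in control medium with glutamine (pQ), the library labelled 0 h, replicate 3, held 50.2 CPM summed over the 51 names that were near 0 at 0 h in siCTU2 cells. The other 0 h libraries of the series held 0.156 to 3.96 CPM, and 5 h libraries held 33.3 to 122 CPM. This library enters no result here.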

How the results depend on the processing

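The scaling decided how many genes were called. Lower and higher genes at 3 h numbered 8993 and 148 on stable genes, 10492 and 126 on stable genes chosen at 3 h only, and the higher genes 319 on ribosomal protein mRNAs, with median changes of -0.55, -0.77 and -0.19 over all genes. Lower calls were 54.6% of all calls on the TMM scale and 98.4%, 98.8% and 91.2% on these 3 scales. Tested against 1.5-fold, 856 genes were lower and 138 higher, and the difference between conditions gave 23 and 16 genes. With a filter of at least 1 count, 121 genes had a higher change in siCTU2 cells. Fitted on the TCHX arm libraries, the difference gave 199 lower and 258 higher. Without 1 replicate, 1667 to 1962 genes were lower and 1024 to 1571 higher, the fewest without replicate 1. The difference without 1 replicate gave 72 to 98 lower and 41 to 56 higher genes, again the fewest without replicate 1.

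The labels say that the times of a treatment were split from identical batches, but do not say what a replicate number marks. Same-numbered samples of the 2 times deviated together with correlations of 0.09, 0.14 and 0.16, and all 6 samples matched their own number best. Without the block 1918 genes were lower and 1229 higher, and the difference gave 79 and 30 genes.

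Named genes that turned direction were mostly risers on the stable gene scale (3 or 5 h rule, then 3 h only): HMOX1 -0.39 and -0.61, SRSF9 -0.13 (3 h only), STARD4 -0.16 and -0.38, RPL39L -0.0046 and -0.22, MRPL12 -0.21 (3 h only), MRPL39 -0.075 and -0.29, NDUFS7 -0.045 and -0.26, COX8A -0.091 and -0.31, GAPDH -0.15 and -0.37, ENO2 -0.18 and -0.40, PSMD4 -0.25 and -0.47, PSMD2 -0.26 and -0.47, CTSZ -0.022 and -0.24, GRN -0.039 and -0.26, COL4A2 -0.10 and -0.32, COL6A1 -0.10 and -0.32, MUC7 -0.26 and -0.47. On the ribosomal protein scale HMOX1 was at -0.023. Leaving out 1 replicate put PGM5P2 at -0.17 to 0.17 (positive without replicate 3). PGM5P2 was not called with all replicates. The cause was not tested. The other named changes kept their direction, and over these named genes and all alternatives a call was lost 43 times and gained 22 times. Of the named differences, CTU2 lost its call without replicate 1 and against 1.5-fold, and HMGA2 against 1.5-fold. Genes under about 50 counts, such as CTU2 in siCTU2 cells, are limited by depth.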
